A study of Mus musculus with 4 samples.

Results

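A set of 7 genes whose products make superoxide, hydrogen peroxide or nitric oxide in the gut lining, or which their enzymes need as partners, was examined in mouse colonoids, which are organoids grown from colonic crypts. The members were *Duox2*, *Duoxa2*, *Nox1*, *Noxo1*, *Noxa1*, *Nos2* and *Cyba*, chosen by symbol from the 36144 genes of the count table. All 7 had more than 10 counts in at least 2 libraries, as did 13979 genes in all, and these are called tested genes here. Gene expression was measured by RNA-seq of poly-A RNA from colonoids left untreated or given 2 mM sodium butyrate, the short-chain fatty acid made by bacterial fermentation of fibre, and collected at 48 h or 72 h. The 4 conditions had 1 library each, so no difference can be set against the spread between cultures. All groups came from a male mouse aged 24 weeks with the genotype WT in the labels, whereas the study describes its organoids as Hes1-GFP reporter cultures from proximal colon. Every culture, untreated ones included, grew in crypt medium with EGF at 40 ng/ml, noggin at 200 ng/ml, R-spondin at 500 ng/ml, the kinase inhibitor CHIR99021 at 3 µM and the ROCK inhibitor Y-27632 at 10 µM. Total counts ran from 20790225 to 24207840 per library, and mitochondrial genes took 14.1% to 18.4% of them. A list of 6 epithelial markers, led by *Krt8*, summed to between 126921 and 162803 counts. The 6 mesenchymal markers summed to 21 to 30 counts and 10 phagocyte markers to 62 to 88.

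The colonic epithelium has enzymes whose function is to make oxidants. NOX1 moves electrons across the membrane to oxygen and makes superoxide; it is held by p22phox, the product of *Cyba*, and switched on by the organiser NOXO1 and the activator NOXA1 together with the small GTPase RAC1. DUOX2 makes hydrogen peroxide at the luminal face and needs its maturation factor DUOXA2 to leave the endoplasmic reticulum. NOS2, the inducible nitric oxide synthase, makes nitric oxide from arginine. These enzymes take part in defence against luminal microbes, in mucus release and in signalling, and *Duox2*, *Duoxa2* and *Nos2* are known to be induced by microbial and inflammatory signals.

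The 7 genes fell into 4 patterns with butyrate, described here by values alone. *Duox2* was about 2-fold lower at both times. *Nox1*, *Nos2* and *Duoxa2* were lower at 72 h and not at 48 h. *Noxo1* and *Noxa1* were lower at 48 h and nearly level with the untreated library at 72 h. *Cyba* was higher at both times. Levels are counts divided by DESeq2 size factors ("normalised counts"), changes are log2 ratios of butyrate over untreated, and bracketed ranges are 95% intervals that cover counting error only. A gene is called where it changed at least 2-fold; at a single time there is no replicate and so no p-value. Only a model that assumes the same change with butyrate at both times (treatment plus time, 1 residual degree of freedom) allows a test, in which the disagreement between the times stands for the error; it was added after the data were seen. By edgeR's quasi-likelihood test with Benjamini-Hochberg adjustment over all tested genes, *Duox2* passed with a log2 change of −1.03 and an adjusted p of 0.0068 (0.00037 with DESeq2), as did 2.51% of tested genes. *Cyba* had a log2 change of 0.60 and an adjusted p of 0.058 (0.12 with DESeq2), and its direction was the same at both times. The adjusted p of the other 5, some of which do not meet the assumption, ran from 0.20 to 0.72 with edgeR. The plot of normalised counts by library shows the 4 patterns, and the plot of log2 changes sets them beside the range of all tested genes.

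**Figure D1:**
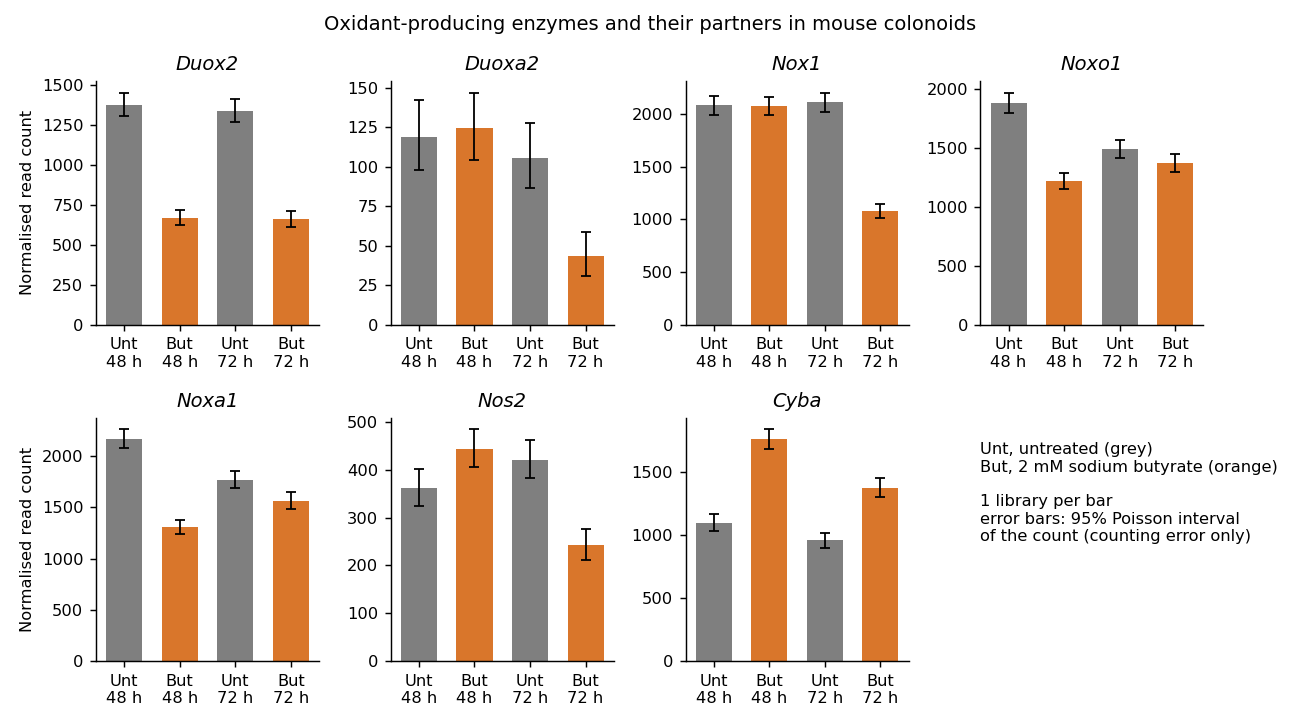
Normalised read count (vertical axis, starting at 0, with its own scale in each panel) of each of the 7 genes in the 4 libraries, with grey bars for untreated and orange bars for butyrate and error bars for the 95% Poisson interval of the count. The 2 butyrate bars of *Duox2*, at 671.4 and 661, are lower than its untreated bars, at 1379 and 1341, whereas *Nox1* has only 1 low bar, butyrate at 72 h (1076).

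*Duox2* is the catalytic subunit of the hydrogen peroxide-producing enzyme, and *Duoxa2* encodes its maturation factor. In GRCm38 with the GENCODE M21 annotation, *Duox2* lies on the minus strand at chr2:122279247-122298449 and *Duoxa2* on the plus strand at chr2:122298900-122302885. The genes point away from each other with 450 bases between their models, so that by these models the sequence upstream of both starts is shared. Their paralogs *Duox1* and *Duoxa1* are the next pair at the same place, with 1941 bases between their models. The 250 bases before the *Duoxa2* start are printed because they lie in the intergenic region of the pair and the 2 genes did not move together at 48 h. They are RefSeq sequence of GRCm38.p6, chr2:122298650-122298899, on the strand of *Duoxa2*, with no annotated exon in it. Capitals mark matches to 8 promoter motifs searched on both strands.
Duoxa2: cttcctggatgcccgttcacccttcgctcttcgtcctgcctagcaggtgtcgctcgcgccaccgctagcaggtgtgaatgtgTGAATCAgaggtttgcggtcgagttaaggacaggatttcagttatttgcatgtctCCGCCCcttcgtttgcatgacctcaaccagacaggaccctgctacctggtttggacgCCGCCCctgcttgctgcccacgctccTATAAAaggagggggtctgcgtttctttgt
The stretch holds a TATA box (TATAAA) 30 to 25 bases before the start, a motif found in 12.4% of the 32851 RefSeq windows of the same length. It also holds 2 GC boxes (GGGCGG, on the other strand), which 32.7% of windows have, and 1 AP-1 motif (TGANTCA, where N is any base), which 6.75% have. The other 5 motifs searched were STAT (TTCNNNGAA, in 7.02% of windows), kappaB (GGANTTNCC, 3.15%), the motif of GATA factors (9.99% of windows, letters AGATAA), HNF4 (CAAAGTCCA, 0.384%) and ISRE (GAAANTGAA, 1.75%), and these letters are not in the *Duoxa2* window. A match is a description of the sequence and not a measured binding site.

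*Duox2* had 1379 normalised counts in the untreated library at 48 h, 671.4 with butyrate at 48 h, 1341 untreated at 72 h and 661 with butyrate at 72 h. Both butyrate libraries were low and both untreated libraries high. The log2 change with butyrate was −1.04 (−1.17 to −0.91) in the 48 h pair and −1.02 (−1.16 to −0.88) in the 72 h pair. The change at 72 h minus that at 48 h was 0.02 (−0.17 to 0.21), and within each treatment the levels at 48 h and 72 h did not differ beyond counting error. *Duox2* was the only 1 of the 7 called lower at 48 h, when 3.08% of tested genes were at least 2-fold lower. It was also the only 1 called lower at both times, as were 124 tested genes (0.887%). Both values lie close to the 2-fold line: with counts scaled by library totals, the change at 72 h was −0.97 and no longer called. A share of 10.3% of the 31-base words in *Duox2* transcripts also occurs in *Duox1*, its near copy, but *Duox1* had no more than 4 counts in any library.

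*Duoxa2* was the scarcest of the 7, with 116, 137, 107 and 40 raw counts in the order untreated 48 h, butyrate 48 h, untreated 72 h and butyrate 72 h. Normalised, these were 118.6, 124.3, 105.7 and 43.2. The first 3 libraries did not differ beyond counting error and the butyrate library at 72 h stood apart below them. The log2 change was 0.07 (−0.30 to 0.44) in the 48 h pair and −1.27 (−1.85 to −0.75) in the 72 h pair, and the difference between the changes was −1.34 (−2.03 to −0.70). Between the 2 butyrate libraries, *Duoxa2* was lower at 72 h (43.2 against 124.3 normalised counts); it was the only 1 of the 7 at least 2-fold lower there, beside 4.95% of tested genes. *Duoxa2* transcripts share 41.8% of their 31-base words with *Duoxa1*, which overlaps them on the other strand, but *Duoxa1* had at most 7 counts. With the counts of the 2 genes summed, the log2 change at 72 h was −1.04.

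Per kilobase of exon, *Duox2* transcripts outnumbered those of *Duoxa2* by a ratio of 2.73 (2.26 to 3.33) in the untreated library at 48 h and 2.98 (2.45 to 3.67) at 72 h. In the butyrate libraries it was 1.27 (1.06 to 1.53) for 48 h and 3.60 (2.61 to 5.09) for 72 h. The enzyme and its maturation factor were thus out of step in 1 library, that with butyrate at 48 h, where *Duox2* was low and *Duoxa2* was not. At 72 h both were low and the interval of their ratio overlapped that of the untreated library.

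**Figure D2:**
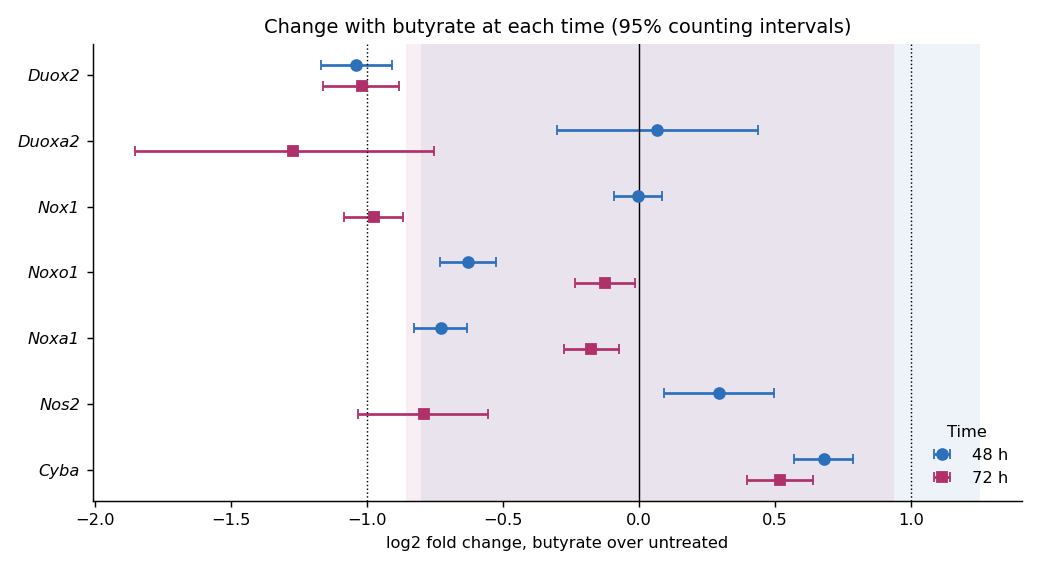
Log2 fold change of butyrate over untreated (horizontal axis) for each of the 7 genes at 48 h (blue circles) and 72 h (red squares), with 95% counting intervals, dotted lines at 2-fold and bands from the 5th to the 95th percentile of the 13979 tested genes, blue for 48 h and red for 72 h. *Duox2* lies outside the bands at both times (−1.04 and −1.02), *Nox1* and *Duoxa2* only at 72 h (−0.97 and −1.27), and *Cyba* stays inside at 0.68 and 0.52.

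*Nox1* encodes the superoxide-producing subunit that colonic epithelium is known for. It lies on the minus strand at chrX:134086421-134221956. The RefSeq start of *Nox1* lies well inside this GENCODE model, whose longest transcripts begin further upstream. The 250 bases before the RefSeq start, chrX:134111855-134112104 on the minus strand with no annotated exon in them, are shown beside that of *Noxa1* (chr2:25095206-25095455, minus strand) because the subunit and its activator moved at different times.
Nox1: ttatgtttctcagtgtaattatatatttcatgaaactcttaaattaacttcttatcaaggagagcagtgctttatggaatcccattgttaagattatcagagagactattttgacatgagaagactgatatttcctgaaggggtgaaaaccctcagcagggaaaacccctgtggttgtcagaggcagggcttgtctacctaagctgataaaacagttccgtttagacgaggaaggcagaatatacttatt
Noxa1: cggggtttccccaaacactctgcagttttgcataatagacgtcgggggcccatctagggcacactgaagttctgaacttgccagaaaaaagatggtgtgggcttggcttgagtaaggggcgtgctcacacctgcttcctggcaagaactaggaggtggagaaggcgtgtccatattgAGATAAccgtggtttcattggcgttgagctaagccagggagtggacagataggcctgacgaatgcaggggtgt
The *Nox1* window contains none of the 8 motifs, and the capitals in *Noxa1* mark 1 GATA motif. The 2 windows also differ in base composition, with a G+C content of 38% in *Nox1*, 53.2% in *Noxa1* and a median of 52.4% over all windows.

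*Nox1* had 2083, 2079, 2114 and 1076 normalised counts in the untreated 48 h, butyrate 48 h, untreated 72 h and butyrate 72 h libraries. The first 3 agreed within counting error and only the butyrate library at 72 h was low. The log2 change was −0.0030 (−0.09 to 0.08) in the 48 h pair and −0.97 (−1.09 to −0.87) in the 72 h pair. The difference between the changes was −0.97 (−1.11 to −0.83). At 72 h *Nox1* was just short of the 2-fold line, and 4.02% of tested genes were as far down or further. The end of its transcripts shares 31-base words with *Cstf2* on the other strand (11.1% of the words in *Nox1* transcripts), and *Cstf2* itself changed by 0.11 at 48 h and 0.0097 at 72 h. With the counts of both genes summed, the change at 72 h was −0.37 (−0.43 to −0.30). This sum takes in every *Cstf2* read and is not an estimate for *Nox1* alone. At 72 h *Cstf2* had 2450 raw counts untreated and 2255 with butyrate, beside 2141 and 996 for *Nox1*. How reads were divided between them was not tested.

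*Noxo1*, the organiser, lies on the plus strand at chr17:24696234-24700529. Its normalised counts were 1877 untreated and 1215 with butyrate at 48 h, then 1488 untreated and 1365 with butyrate at 72 h. All 4 levels differed from their neighbours in order beyond counting error, with the untreated library at 48 h highest and the butyrate library at 48 h lowest. The log2 change was −0.63 (−0.73 to −0.53) in the 48 h pair and −0.12 (−0.23 to −0.02) in the 72 h pair, and the difference was 0.50 (0.35 to 0.65). This value is uncertain, since 63.3% of the 31-base words in *Noxo1* transcripts, and 51.3% of those in Noxo1-201, occur also in *Tbl3*, which overlaps *Noxo1* by 2581 bases on the other strand. *Tbl3* had 561, 1089, 632 and 618 raw counts, and its log2 change at 48 h was 0.78, opposite to that of *Noxo1*. With the counts of both genes summed, an alternative added after the data were seen, the change at 48 h was −0.15 (−0.24 to −0.07) and that at 72 h was −0.06 (−0.15 to 0.03). How reads were divided between the 2 genes was not tested.

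*Noxa1*, the activator, lies on the minus strand at chr2:25085667-25095149 and shares only 1.24% of its words with another gene. At 48 h it had 2164 normalised counts untreated and 1306 with butyrate. At 72 h the 2 levels were 1766 and 1565. The order of the 4 libraries was that of *Noxo1*, again with each step beyond counting error. The log2 change was −0.73 (−0.83 to −0.63) in the 48 h pair and −0.17 (−0.28 to −0.07) in the 72 h pair, with a difference of 0.55 (0.41 to 0.69). Part of that difference came from the untreated libraries, in which *Noxa1* was lower at 72 h than at 48 h by a log2 ratio of −0.29; that of *Noxo1* was −0.34. None of the 7 genes changed 2-fold between the untreated libraries, beside 4.49% of tested genes.

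*Cyba* encodes p22phox, the membrane partner of NOX1, and lies on the minus strand at chr8:122424776-122432930. The 250 bases before its RefSeq start (chr8:122432941-122433190, minus strand) are given because *Cyba* was the 1 gene of the 7 that was higher at both times.
Cyba: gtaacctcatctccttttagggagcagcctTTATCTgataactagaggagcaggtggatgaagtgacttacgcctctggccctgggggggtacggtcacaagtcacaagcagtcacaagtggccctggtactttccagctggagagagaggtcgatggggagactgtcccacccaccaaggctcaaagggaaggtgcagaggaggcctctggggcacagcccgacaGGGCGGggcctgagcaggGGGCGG
Capitals mark 2 GC boxes, the nearer ending at the start site, and 1 GATA motif on the other strand. At 48 h *Cyba* had 1096 normalised counts untreated and 1756 with butyrate. At 72 h it had 956.8 untreated and 1372 with butyrate. Both butyrate libraries were above both untreated ones. The log2 change was 0.68 (0.57 to 0.79) in the 48 h pair and 0.52 (0.40 to 0.64) in the 72 h pair, short of 2-fold, and 11.27% and 11.02% of tested genes were as far up or further. At least 2-fold increases were made by 6.94% of tested genes at 48 h and 4.53% at 72 h, and by none of the 7. The 10 phagocyte markers, cells in which p22phox is abundant, summed to 68.5 normalised counts untreated and 56.3 with butyrate for 48 h, and to 86.9 and 88.6 for 72 h. Single markers went different ways: at 72 h *Csf1r*, named after its values were seen, had 0 raw counts untreated and 16 with butyrate, *Ncf1* had 28 and 11, and *Itgam*, the highest, had 41 and 43. *Adgre1* was at 0 in all 4 libraries. The part of such cells in the *Cyba* result was not tested. *Gm20388*, a gene model on the other strand that spans *Cyba*, changed by 0.89 and 0.43, and with its counts added the changes were 0.74 and 0.49.

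The ratios between *Nox1* and its cytosolic partners moved in opposite directions at the 2 times. Per kilobase of exon, *Nox1* to *Noxa1* was 0.471 (0.443 to 0.501) untreated and 0.778 (0.728 to 0.832) with butyrate at 48 h, but 0.585 (0.549 to 0.623) untreated and 0.336 (0.310 to 0.365) with butyrate at 72 h. *Nox1* to *Noxo1* was 1.01 and 1.56 at 48 h and 1.29 and 0.718 at 72 h, under the same limit on *Noxo1* as above. In both pairs the catalytic subunit gained on its cytosolic partner at 48 h and lost ground at 72 h. The loss at 72 h rests on the *Nox1* count. The counts of *Nox1* and *Cstf2* together changed by −0.37, beside −0.17 for *Noxa1*. That sum takes in every read of *Cstf2*, itself level at 0.0097, and is not an estimate for *Nox1* alone. *Nox1* to *Cyba* was lower with butyrate at both times, at 0.597 (0.554 to 0.643) untreated against 0.372 (0.350 to 0.395) at 48 h, and 0.694 (0.643 to 0.750) against 0.246 (0.227 to 0.268) at 72 h. The ratio of organiser to activator, in contrast, stayed between 0.452 and 0.499 with overlapping intervals in all 4 libraries. This ratio rests on the uncertain *Noxo1* count. The counts of *Noxo1* and *Tbl3* together changed by −0.15 at 48 h, beside −0.73 for *Noxa1*, so the ratio would not be steady on that count. The plot of partner ratios sets these side by side.

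**Figure D3:**
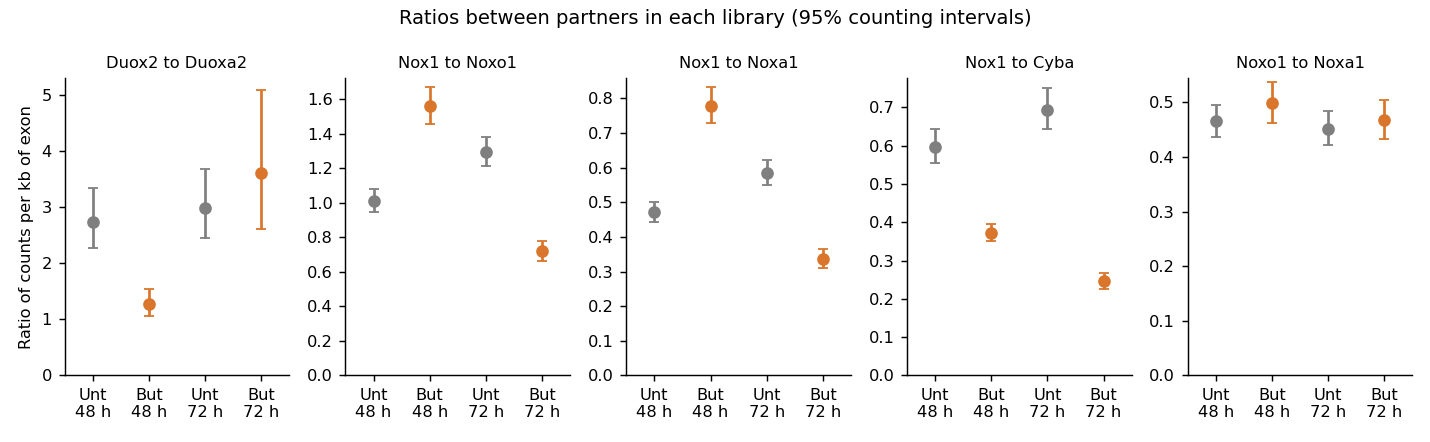
Ratio of counts per kilobase of exon between partner genes (vertical axis, starting at 0, with its own scale in each panel) in the 4 libraries, with 1 grey point per untreated library, 1 orange point per butyrate library and 95% counting intervals. *Nox1* to *Noxa1* is highest with butyrate at 48 h (0.778) and lowest with butyrate at 72 h (0.336), while *Noxo1* to *Noxa1*, which rests on the uncertain *Noxo1* count, stays between 0.452 and 0.499.

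*Nos2* lies on the plus strand at chr11:78920787-78960254. Untreated libraries held 361 normalised counts at 48 h and 420.6 at 72 h, and butyrate libraries 442.8 and 243. The butyrate library at 48 h was the highest of the 4 and that at 72 h the lowest. The log2 change was 0.29 (0.09 to 0.50) in the 48 h pair and −0.79 (−1.03 to −0.56) in the 72 h pair, opposite in sign, with a difference of −1.08 (−1.40 to −0.78). It shares no 31-base word with any other annotated gene. The other nitric oxide synthases were scarce, with 12 to 22 counts of *Nos1* and 0 to 6 of *Nos3* per library. Of the phagocyte markers, 3 or 4 of 10 were at 0 in each library.

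At 72 h the members were mostly lower with butyrate. Of the 7, 6 had intervals below 0, and *Cyba* had an interval above it, with a median log2 change of −0.79. At 48 h 3 were below 0 and 2 above, with a median of −0.0030. Over all tested genes, 3695 were below and 3620 above at 72 h, with a median of 0.002, and 4377 and 4102 at 48 h, with a median of −0.01. *Duox2* and *Duoxa2* were called lower at 72 h, when 3.78% of tested genes were. At the same time, summed normalised counts of 8 colonocyte markers, led by *Ceacam1*, were 125179 untreated and 73397 with butyrate at 72 h, and 8 of 8 were lower, 7 of them with intervals below 0. At 48 h that sum was 93324 untreated and 100427 with butyrate, but single markers moved further. Of the 8, 6 were higher at 48 h, 3 of them past 2-fold, and 2 were lower, 1 of them past 2-fold. *Ceacam1*, which led the sum, was among those lower, with 61945 and 38676 normalised counts. Stem cell markers were higher at 72 h in 6 of 6, with sums of 39483 and 52990, and the 8 goblet and deep crypt secretory markers, led by *Muc2*, summed to 166285 and 90624. Of these 8, 6 were lower, all with intervals below 0 and 3 past 2-fold, and 2 were higher, 1 of them past 2-fold. At 48 h 4 of 6 stem cell markers were lower and 2 higher, with sums of 45277 untreated and 41828 with butyrate. The goblet and deep crypt secretory markers had 4 higher and 4 lower at 48 h, with sums of 114278 and 92979. The part of the 72 h shifts in the lower *Nox1*, *Nos2* and *Duoxa2* at 72 h was not tested. In bulk RNA, fewer cells of a type and less RNA per cell cannot be told apart.

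Levels can be compared between genes only per length, as CPM per kilobase of exon. In the untreated library at 48 h, *Noxa1* stood at 60.7, *Cyba* at 47.8, *Nox1* at 28.6 and *Noxo1* at 28.3. The order within these pairs depends on the length used: with the longest transcript in place of all exons, the ratio of *Nox1* to *Noxa1* there was 0.607 and that to *Cyba* 0.552, which puts *Cyba* above *Noxa1*, and the ratio of *Nox1* to *Noxo1* was 0.969. *Duox2* (9.24), *Nos2* (3.71) and *Duoxa2* (3.38) were below these. With butyrate at 72 h the highest was *Cyba* at 58.8, with *Noxa1* at 43.1 and *Nox1* at 14.5. Among the 6 catalytic subunits of the family, *Nox1* made up 75.4% of the per-length total in untreated and 86.3% in butyrate colonoids of 48 h, then 76.1% and 76.6% in those of 72 h. *Duox2* made up 24.4%, 13.6%, 23.6% and 23.0% in the same order. The 2 enzymes thus held nearly the same shares with and without butyrate at 72 h, when both were lower, and differed at 48 h, when *Duox2* alone was. The like shares at 72 h rest on the *Nox1* count. The counts of *Nox1* and *Cstf2* together changed by −0.37, beside −1.02 for *Duox2*, but that sum takes in every read of *Cstf2*, itself level. *Nox4* had 5 to 15 counts, *Cybb*, the phagocyte subunit, 0 to 4, and *Nox3* 0 in all 4 libraries.

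Of 11 other oxidase subunits and factors, 4 were tested. *Rac1*, whose product helps switch on NOX1, had normalised counts of 8785, 9193, 9849 and 8841 and changed by 0.07 and −0.16. *Ncf1*, the phagocyte counterpart of *Noxo1*, rested on 6, 12, 28 and 11 counts, with changes of 0.74 (−0.70 to 2.53) and −1.15 (−2.37 to −0.17).

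Genes that supply or limit nitric oxide synthesis were mostly higher with butyrate at 48 h: 10 of 11 tested were higher, 6 with intervals above 0, and the median was 0.37. Of all tested genes, 6812 were higher and 7165 lower at that time. *Ass1*, which makes the arginine precursor argininosuccinate, had 393.7 and 1641 normalised counts at 48 h and 315 and 780.9 at 72 h, untreated and with butyrate. Its log2 changes of 2.06 (1.90 to 2.22) and 1.31 made it the only gene of this list called at both times. *Gch1*, the first enzyme of tetrahydrobiopterin synthesis, changed by 1.08 and −0.34, and its regulator *Gchfr* by 2.56 and −0.15. At 72 h the list had 5 higher and 6 lower with a median of −0.02, which turned to 0.03 with library total scaling.

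**Figure D4:**
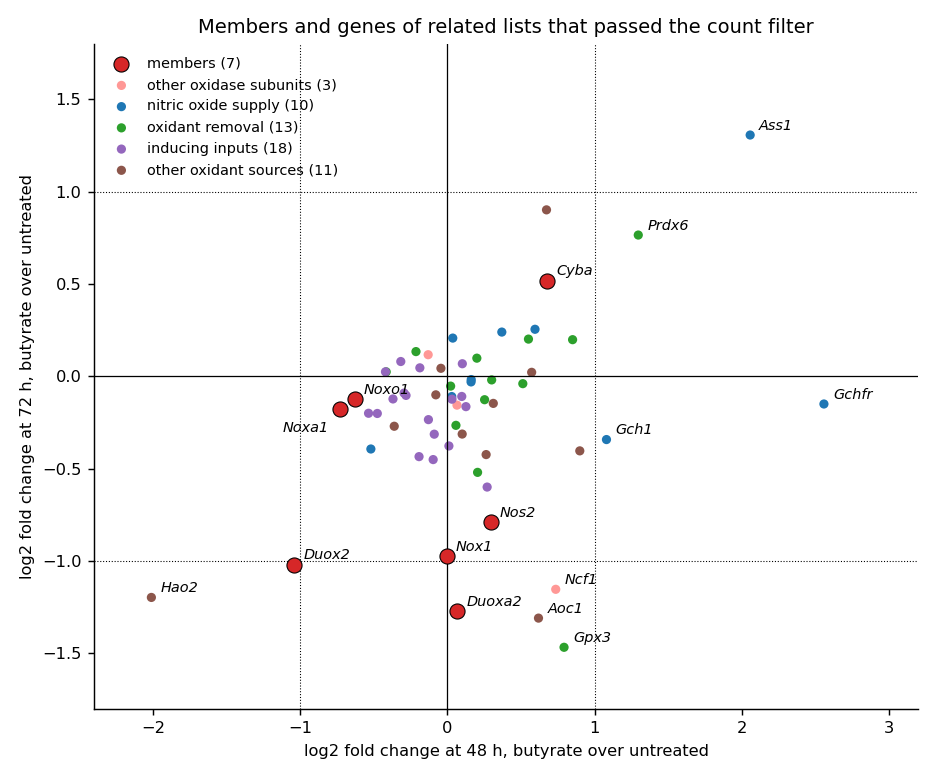
Log2 fold change with butyrate at 48 h (horizontal axis) against that at 72 h (vertical axis) for the 7 genes (large red points) and for tested genes of 5 related lists (small points, coloured by list, number plotted in the key, a few genes being left out), with dotted lines at 2-fold and names on genes past 2-fold at either time. *Nox1*, *Nos2*, *Duoxa2* and *Duox2* lie in the lower part of the plot, *Ass1* alone is past 2-fold upwards at both times (2.06 and 1.31), and *Hao2* is past 2-fold downwards at both (−2.01 and −1.20).

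Among 13 tested genes for enzymes that remove oxidants, 11 were higher at 48 h, 8 of them with intervals above 0, with a median of 0.25, and at 72 h 6 were higher and 7 lower. Of all 13979 tested genes, 6812 were higher and 7165 lower at 48 h, 4102 with intervals above 0, and 7027 were higher and 6948 lower at 72 h. *Prdx6*, a peroxiredoxin that reduces peroxides of lipids, had 5468 and 13436 normalised counts at 48 h and 5704 and 9697 at 72 h, with changes of 1.30 and 0.77. *Gpx3*, the secreted glutathione peroxidase, had only 9 to 34 counts and changed by 0.79 (−0.05 to 1.76) and −1.47 (−2.82 to −0.44). Of 11 tested genes listed as other possible oxidant sources, 7 were higher at 48 h and 8 were lower at 72 h. Their medians were 0.26 and −0.27, beside −0.01 and 0.002 for all tested genes. *Hao2*, a hydroxyacid oxidase of peroxisomes, had 200.4 and 48.99 normalised counts at 48 h and 380.1 and 165.2 at 72 h. *Aoc1*, the diamine oxidase of gut epithelium, had 983.7 and 1512 at 48 h and 1348 and 543.3 at 72 h, so that its changes, 0.62 and −1.31, had opposite signs like those of *Nos2*.

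The receptors and transcription factors that carry inducing signals to these genes, such as those of the interleukin-17, interferon and NF-kappaB routes, made no 2-fold change, beside 6.94% of tested genes higher and 3.08% lower at 48 h and 4.53% and 3.78% at 72 h; in a list of 20, a count of 0 is near those shares. The list of 20, all of them tested, included *Il22ra1*, *Il10rb*, *Il17ra*, *Il17rc*, *Ifngr1*, *Ifngr2*, *Tlr2*, *Tlr4*, *Tlr5*, *Myd88*, *Nod2*, *Stat3*, *Irf1*, *Nfkb1*, *Rela*, *Gata6*, *Cdx2* and *Hnf4a*. At 48 h 13 were lower, 9 with intervals below 0, and the log2 changes ran from −0.54 to 0.27. At 72 h 15 were lower, 10 with intervals below 0. Of all 13979 tested genes, 7165 were lower at 48 h, 4377 with intervals below 0, and 6948 at 72 h, 3695 with intervals below 0. Medians of −0.16 and −0.14 stood beside −0.01 and 0.002 for all tested genes.

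The genes closest in pattern to *Duox2*, *Nox1* and *Nos2* were found by the largest difference, over the 4 libraries, between log2 levels centred on each gene's mean. For *Duox2* these were *Cgref1* (0.06), *Pcdh17* (0.07) and *Smim6* (0.09). *Cgref1* had 841.5, 386.5, 799.8 and 409.3 normalised counts, with both butyrate libraries low. For *Nox1* they were *Rmdn2* (0.04), *Slc13a1* (0.07) and *Ndufa1* (0.08), and for *Nos2* *Btnl4* (0.03), *Smim13* (0.04) and *S100a13* (0.05). *Btnl4* had 364, 456.4, 415.7 and 243, the order seen for *Nos2*. The search covered 10787 genes over only 4 libraries, so these matches describe the pattern and no more.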

How the data were processed

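Poly-A RNA-seq was made from mouse colonoids in 4 conditions, with 1 library each. The authors deposited 1 table of estimated counts per gene: transcript abundances came from kallisto pseudoalignment and were summed to genes with tximport, giving whole numbers. The submitters' processing notes name kallisto 0.44.0 and GRCm38.p6; the transcript annotation and library strand are not given in the sources used here. Pseudoalignment divides reads that fit several genes by estimate, so genes sharing sequence are less certain. Sample groups came from the labels, and 0 columns were left unused.

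The filter of the study was applied: a gene needed over 10 counts in 2 or more libraries. Counts were divided by DESeq2 1.42.0 size factors (R 4.3.3), and log2 ratios used a pseudocount of 1. Intervals at 95% were exact Clopper-Pearson intervals on the pair of counts, Poisson intervals for levels, and combined intervals for differences of changes. They cover counting error only. A gene was called at 2-fold. No test was possible within a time; a model of treatment plus time, with 1 residual degree of freedom, was added after the data were seen (edgeR, with DESeq2 as an alternative). Lengths and positions came from GENCODE M21 (GRCm38), and promoters from RefSeq (GRCm38.p6; 6 of 7 genes matched, all but *Nos2*). The procedure was tested on simulated data for the 48 h comparison: 200 of 200 genes given a 4-fold change were called among 11650. That check covers counting noise and a change far from the 2-fold line, not changes near it or variation between cultures.

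The 7 genes and the related lists were chosen with earlier results of these data known. Named genes were all 7, list genes past 2-fold at either time, direct paralogs or partners, and the 3 genes closest in pattern to *Duox2*, *Nox1* and *Nos2* among genes with a mean of at least 100 normalised counts. *Tbl3*, *Cstf2* and *Gm20388* were named after their values were seen, because they overlap members, and the marker that led each list was named with it. Alternatives were TMM factors (edgeR 4.0.16), total counts with and without mitochondrial genes, other pseudocounts, filters, fold limits and gene lengths. A comparison of protein sequences was not run. Some genes of the related lists count in their list's totals but are not reported here by name. Python 3.11.15 was used.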

Additional observations from a re-analysis of the deposited data

Results flagged for a closer look

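For 6 genes, among the 7 and the list genes named in the report (markers and genes chosen for a like pattern not counted), the log2 changes at the 2 times had opposite signs while neither counting interval reached 0. They were 0.29 at 48 h and −0.79 at 72 h for *Nos2*, 1.08 and −0.34 for *Gch1*, 0.62 and −1.31 for *Aoc1*, 0.27 and −0.60 for *Il17rc*, 0.13 and −0.16 for *Cdx2*, and 0.066 and −0.16 for *Rac1*. The changes of *Cdx2* and *Rac1* are small. The difference between the times was not tested, since each condition is 1 library, and variation from culture to culture cannot be told apart from it.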

How the results depend on the processing

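Pairing by culture was not possible because there is only 1 library per condition and the labels carry no number that pairs libraries. No library could be left out either. With time as the block instead (treatment plus time), 1 of the 7 and 351 genes passed with edgeR and 1 and 259 with DESeq2; 2237 genes and 5 of the 7 had an unadjusted edgeR p under 0.05. Of 175 recomputed changes of the 7 genes under other scalings and pseudocounts, all 175 stayed inside the main counting interval. None whose interval excluded 0 changed sign; *Nox1* did where its change was near 0, from −0.0030 to 0.0029 at 48 h with total counts, and between the untreated libraries from 0.02 to −0.06 (−0.00062 without mitochondrial genes). With total count scaling 1 of the 7 was called lower at 72 h in place of 2. At 1.5-fold, 1 was higher and 3 were lower at 48 h, 4 were lower at 72 h, and 3 were lower at 72 h than at 48 h with butyrate. In the same order, 1837, 1244, 1192 and 1663 of the 13979 tested genes passed that limit.

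Counts over all genes depend on the filter and the fold limit. With a mean of at least 50 normalised counts, with every gene of at least 1 count, and at 1.5-fold, they were 458, 2332 and 1837 higher and 180, 1997 and 1244 lower at 48 h, and 271, 2253 and 1328 higher and 187, 1752 and 1192 lower at 72 h. From 48 h to 72 h they were 88, 1417 and 953 higher and 98, 1807 and 723 lower untreated, and 193, 2105 and 1351 higher and 292, 2166 and 1663 lower with butyrate. Longest transcripts in place of exon length moved the ratio of *Nox1* to *Noxa1* to between 0.434 and 1.00 without changing the order of the libraries. The *Noxo1* change at 48 h was −0.63, and that of *Noxo1* and *Tbl3* counted together −0.15. The *Nox1* change at 72 h was −0.97, and that of *Nox1* and *Cstf2* counted together −0.37. The latter sum takes in every read of *Cstf2*, which was itself level at 72 h. Low counts limit *Duoxa2*, *Ncf1* and *Gpx3*.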
